A study of Mus musculus with 3 samples.

Results

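The genes described here encode collagens, the fibrous proteins of the extracellular matrix, and the proteins that modify, fold, cut and cross-link them, measured in 3 mammary tumours of transgenic mice. They were taken from the array's gene symbols: every probe set (a set of short oligonucleotides that reports 1 transcript) assigned to a single gene whose symbol is Col, a number, a and a number, or to P4ha1, P4ha2, Plod1, Plod2, Plod3, Serpinh1, Pcolce, Lox, Loxl1, Loxl2 or Bmp1. This gave 76 probe sets for 46 genes (36 collagens and 10 modifying proteins) among 22626 probe sets and 12393 genes. Loxl2 was reached only by a probe set that the annotation also assigns to Gm21451, with intensities of 48, 37 and 51, and was left out. The samples were 3 tumours from female NMRI mice with the WAP-SVT/t transgene, in which the Wap promoter, normally active in milk-producing cells, makes mammary epithelium produce the T and t antigens of SV40, a DNA tumour virus. All 3 tumours carried this transgene and no gland without a tumour was analysed here, so the values describe how tumours differ from one another. Neither an age nor a treatment of the mice was given in the sources used here. The titles of tumours 1 and 2 share a leading number (585) that tumour 3 does not have (597). What the number means was not given, so tumours 1 and 2 may share a mouse.

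A collagen molecule is a triple helix of 3 chains, each built of short repeats that begin with glycine. In the endoplasmic reticulum, prolyl and lysyl hydroxylases modify the chains and the chaperone of the gene Serpinh1 (Hsp47) binds the finished helix. After secretion, proteases of the Bmp1 type remove the ends of fibrillar procollagens, and lysyl oxidases join the molecules by cross-links. In the mammary gland, stromal fibroblasts are a main source of fibrillar collagens, and type IV collagen forms the basement membrane under the epithelium and around vessels.

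The deposited table gave 1 intensity for each probe set and tumour, with medians of 111 to 120. Every level is given as log2(intensity + 50) of the quantile normalized arrays, folds are differences of these levels turned into ratios, and intensities are quoted as deposited. Where a gene had several probe sets, the brightest on average was reported, and the gene counted as past the low-signal floor when its mean level reached 7.40, the median of all probe sets. With 1 array per tumour no difference had a replicate check, no test between groups exists, and the number of arrays limits the precision of every value. In bulk tissue, fewer cells of a type and less RNA per cell cannot be told apart. Luminal epithelial markers were bright in every tumour, with Epcam at intensities of 4156, 6060 and 6050 in tumours 1, 2 and 3. The array of tumour 3 differed from the others in the control probe sets for 18S ribosomal RNA. The 3′ part was 17.9 times as bright as the middle part there, against 0.274 and 0.197 times in tumours 1 and 2. For the Gapdh controls the ratio of the 3′ to the 5′ part was 0.904, 1.21 and 0.809. The part of these differences in the results for tumour 3 was not tested.

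Promoter sequence is shown first for 6 members, since the tumour patterns of these genes either ran together or parted. Col4a1 and Col4a2 lie head to head with annotated starts 21 bases apart. The levels of their reported probe sets had the same order over the tumours. Col4a5 and Col4a6 also lie head to head, with annotated starts 1343 bases apart. The levels of their reported probe sets had opposite extremes. Col1a2 and Col3a1 encode chains of the main fibrillar collagens, and tumour 3 was lowest for Col1a2 but not for Col3a1. Sequences are from RefSeq (build GRCm38.p6), 5′ to 3′, and end 1 base before the annotated start, except the stretch of Col4a1 and Col4a2. That stretch is printed on the strand of Col4a2 and holds both starts. The Col4a1 start (11312826, minus strand) lies beyond the Col4a2 start (11312805, plus strand). The printed bases up to the Col4a1 start therefore lie inside the Col4a1 gene. Capitals mark 3 motifs on either strand: the CCAAT box, the TATA box (searched as TATAAA) and the GC box (searched as GGGCGG).

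Col1a2, chr6:4505368-4505617, plus strand: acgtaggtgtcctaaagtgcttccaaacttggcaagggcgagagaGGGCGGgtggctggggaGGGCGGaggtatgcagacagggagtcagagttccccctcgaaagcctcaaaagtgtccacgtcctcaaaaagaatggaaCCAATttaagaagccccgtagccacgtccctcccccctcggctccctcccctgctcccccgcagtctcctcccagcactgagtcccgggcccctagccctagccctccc
Col3a1, chr1:45311288-45311537, plus strand: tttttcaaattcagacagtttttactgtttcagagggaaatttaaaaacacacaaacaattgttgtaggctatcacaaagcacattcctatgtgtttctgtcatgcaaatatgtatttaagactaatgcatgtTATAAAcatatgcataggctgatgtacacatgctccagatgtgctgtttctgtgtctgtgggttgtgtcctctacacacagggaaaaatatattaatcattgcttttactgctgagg
Col4a1 and Col4a2, chr8:11312755-11312854, plus strand: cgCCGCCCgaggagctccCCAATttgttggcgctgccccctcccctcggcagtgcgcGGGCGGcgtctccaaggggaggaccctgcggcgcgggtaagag
Col4a5, chrX:141475169-141475418, plus strand: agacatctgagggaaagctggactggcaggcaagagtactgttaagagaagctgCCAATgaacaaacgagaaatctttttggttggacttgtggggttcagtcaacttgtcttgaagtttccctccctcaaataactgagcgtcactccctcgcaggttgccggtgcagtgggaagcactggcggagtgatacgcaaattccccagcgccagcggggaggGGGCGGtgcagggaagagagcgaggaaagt
Col4a6, chrX:141474077-141474326, minus strand: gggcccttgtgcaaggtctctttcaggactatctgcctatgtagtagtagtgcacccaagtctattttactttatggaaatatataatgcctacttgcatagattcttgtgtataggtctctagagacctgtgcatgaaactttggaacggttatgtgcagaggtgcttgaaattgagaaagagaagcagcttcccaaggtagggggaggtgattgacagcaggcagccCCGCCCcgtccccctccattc

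The stretch printed for Col4a1 and Col4a2 held 1 CCAAT and 2 GGGCGG matches and no TATAAA. No match printed there lies before the Col4a1 start. In the 250 bases before its own start, Col4a2 had 1 CCAAT and 2 GGGCGG matches, and Col4a1 had 1 CCAAT and no GGGCGG. The Col1a2 stretch held 1 CCAAT and 2 GGGCGG matches. The Col3a1 stretch held 1 TATAAA and neither other motif. Col4a5 had 1 CCAAT and 1 GGGCGG, and Col4a6 had 1 GGGCGG. The table held 36 windows for 33 of the 46 genes. In the 250 bases before the start, searched on both strands, CCAAT occurred in 13 of these 36 windows and in 33.8% of all 32851 windows. TATAAA occurred in 6 of 36 against 12.4%, and GGGCGG in 21 of 36 (58.3%) against 32.7%. A match describes the letters of the window and shows no binding. A link of these sequences, or of the distance between starts, to the tumour patterns was not tested.

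Collagen genes differed more between the tumours than the median gene, and mostly through tumour 3. The members were chosen with earlier results known, some of which already showed matrix genes low in tumour 3. The shares below therefore describe the data and are no independent check. Past the floor were 25 of 36 collagen genes, and all 10 modifying genes. Highest and lowest tumour were at least 2-fold apart for 17 of the 25 collagen genes, against 24.8% of the 6952 genes past the floor. Without any floor the count was 17 of 36, against 16.9% of all 12393 genes. The median collagen past the floor had a range over the tumours of 1.23 (log2), or 2.35-fold, and the median of all genes past it had 0.66. A range of at least 4-fold occurred for 4 collagens (Col2a1, Col9a1, Col9a2 and Col18a1) against 3.42% of genes. Tumour 3 was lowest for 17 of 25 collagens, where 44.2% of genes had their lowest value. Among all 36 collagens on the array it was lowest for 19, against 41.0%. It lay at least 2-fold below both other tumours for 9 collagens, against 4.80% of genes. Col7a1, which passed the floor only through tumour 1, is among these 9. It is also among the 17 at least 2-fold apart and the 17 lowest in tumour 3. Tumour 2 was highest for 13 (39.2% of genes), tumour 1 for 10 (30.5%) and tumour 3 for 2 (30.3%). Tumour 1 was lowest for 6 (28.7%) and tumour 2 for 2 (27.2%).

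Pair by pair, tumour 1 exceeded tumour 3 at least 2-fold for 12 collagens (8.31% of genes) and tumour 2 exceeded tumour 3 for 11 (10.8% of genes). Tumours 1 and 2 were at least 2-fold apart for 4 of the 25 collagens, in 2 genes each way, a share above the 8.26% of all genes past the floor. These were Col6a3 and Col12a1, higher in tumour 1, and Col2a1 and Col9a2, higher in tumour 2. Leaving out tumour 3 repeats this comparison of tumours 1 and 2 and is no second observation. The count of collagens at least 2-fold apart was then likewise 4, and their median range was 0.52. Relative to the mean of the tumours, the median collagen lay at 0.29, 0.26 and -0.57 (log2) in tumours 1, 2 and 3. The median of all genes past the floor lay at 0.02, 0.06 and -0.07. With tumour 3 left out, the collagen median of tumour 1 was -0.048 and that of tumour 2 was 0.048. Deviations of 2 tumours from their mean always mirror each other.

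**Figure D1:**
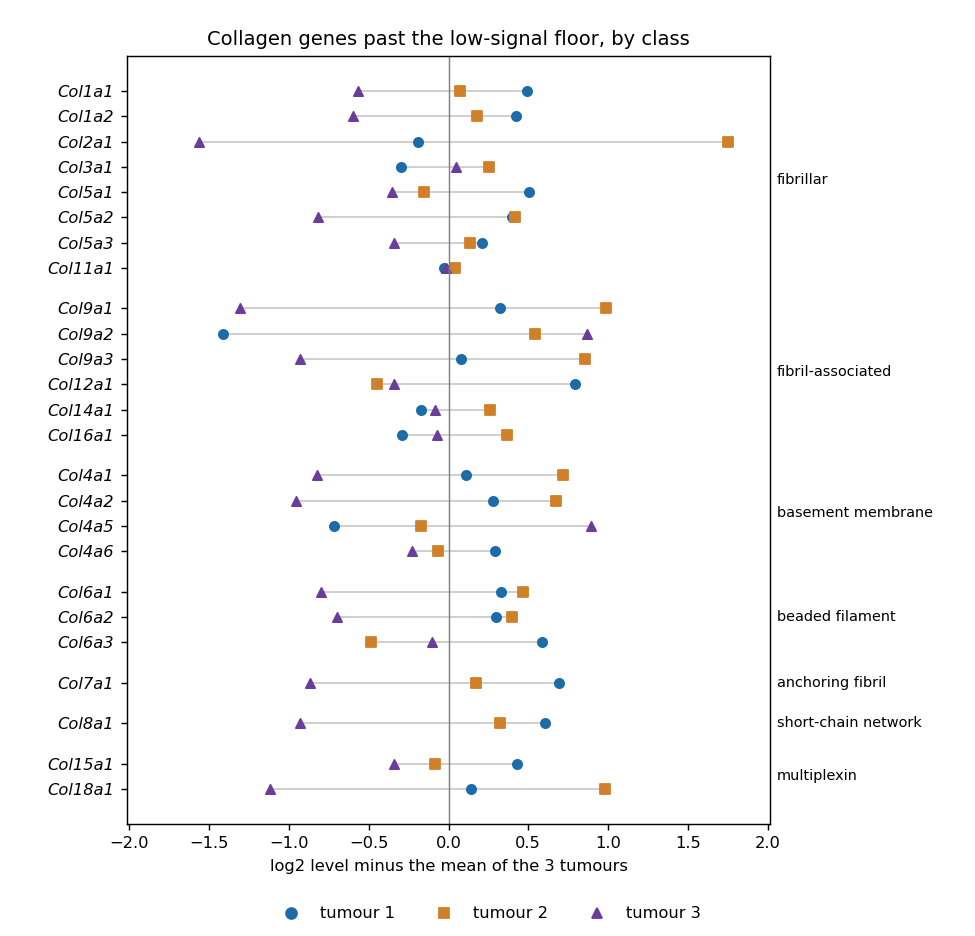
Each row is a collagen gene past the low-signal floor, grouped by class. The horizontal axis gives its log2 level minus the mean of the 3 tumours, and each symbol is 1 tumour, measured once. Tumour 3 is the leftmost symbol for 17 of 25 genes, and Col4a5 and Col9a2 are the 2 genes where it is the rightmost.

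The fibrillar collagens form the cable-like fibrils of connective tissue, and 8 of 9 on the array were past the floor. Col1a1 and Col1a2, the chains of type I collagen, had the same order of tumours. Col1a1 had intensities of 2782, 2090 and 1403 in tumours 1, 2 and 3, a 2.09-fold range around a level of 11.02 ± 0.53 (SD, n = 3). Col1a2 had intensities of 4463, 3629 and 2339, a 2.03-fold range around 11.74 ± 0.53. Their difference from each other varied by 0.18 (log2) over the tumours. This holds for the reported probe sets, and with the mean of all probe sets the excess of tumour 1 over tumour 3 for Col1a1 was 1.64 (log2) in place of 1.06. Both fell short of a 2-fold range with the values as deposited, at 0.96 and 0.92 (log2). Col3a1, which is laid down in fibrils with type I collagen, was lowest in tumour 1, with intensities of 2960, 4236 and 4161. A second probe set of Col3a1 was also lowest in tumour 1, but highest in tumour 3 (232, 273 and 377). With suffixed probe sets left out, the excess of tumour 2 over tumour 1 was 0.10 (log2) in place of 0.55. Relative to Col1a1, Col3a1 was therefore higher in tumour 3 than in tumour 1, and the difference Col1a1 minus Col3a1 varied by 1.41 (log2).

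Type V collagen sets the thickness of type I fibrils. Its chain gene Col5a2 had intensities of 2417, 2493 and 1083, with tumour 3 2.32-fold below the next tumour. Col5a2 and Col3a1 are neighbouring genes, and their difference varied by 1.57 (log2). Col5a1 was brightest in tumour 1 (461, 297 and 234) with a 1.81-fold range, and Col5a3 had a 1.47-fold range (165, 167 and 100). All 3 type V genes had their lowest value in tumour 3.

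Chains known from cartilage were among both the widest and the narrowest ranges. Col2a1, the chain of the main cartilage collagen, had intensities of 287, 1271 and 83. Tumour 2 was 3.84-fold above tumour 1, which in turn was 2.60-fold above tumour 3, and the range was 9.98-fold, the widest of the 35 members past the floor. Col11a1, which forms fibrils with type II collagen, had intensities of 1452, 1565 and 1563, and its 1.05-fold range was the narrowest of the 35. Its second probe set had a 2.13-fold range, lowest in tumour 1 as well. Col11a2 was below the floor, with at most 67 in any tumour.

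Collagens of the fibril-associated class sit on the surface of other fibrils or link them to their surroundings, and 6 of 9 were past the floor. The 3 genes of type IX collagen, which coats cartilage fibrils, parted. Col9a1 had intensities of 3104, 4727 and 1013, with tumour 3 3.09-fold below the next tumour. Col9a3 followed the same order at 1418, 2493 and 698, a 3.44-fold range. Col9a2 ran the other way, with 74, 467 and 567, and tumour 1 was 3.88-fold below the next tumour. The difference between Col9a1 and Col9a3 varied by 0.62 (log2) over the tumours and that between Col9a1 and Col9a2 by 3.91. For Col9a3 the probe sets disagreed. A second one had its highest value in tumour 3 (200, 448 and 609), and the remaining one had at most 18. With the mean of all probe sets, which takes in this dim one, the excess of tumour 2 over tumour 3 shrank from 1.78 to 0.43 (log2).

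The other fibril-associated collagens had lower spreads. Col12a1, found in dense connective tissue, was 2.19-fold higher in tumour 1 than in the next tumour, with intensities of 359, 133 and 140. Col16a1 (836, 1391 and 1036) had a 1.58-fold range and Col14a1 (172, 271 and 188) a 1.35-fold range. Tumour 2 had the highest and tumour 1 the lowest value of both. Only Col9a1 and Col9a3, 2 of the 6 genes of the class past the floor, had their lowest value in tumour 3.

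Type IV collagen, the network of basement membranes, is made from 6 related chains. The α1 and α2 chains occur in nearly all basement membranes, and the others are restricted to some tissues. Col4a1 had intensities of 2711, 4120 and 1502, a 2.91-fold range around a level of 11.38 ± 0.78 (SD, n = 3). Col4a2 had 1489, 1985 and 617, a 3.08-fold range around 10.35 ± 0.85. Tumour 2 was highest and tumour 3 lowest for both genes, and their difference varied by 0.29 (log2). These are the genes whose starts both lie within the 100 bases printed above. A second probe set of Col4a1 also had tumour 3 lowest, but placed tumour 1 above tumour 2 (1154, 1060 and 481). Col4a5 had its highest value in tumour 3, with 299, 491 and 1064, 2.09-fold above the next tumour. Its neighbour Col4a6 had 586, 481 and 399, a 1.43-fold range with the highest value in tumour 1. Their difference varied by 2.13 (log2) for the reported probe sets. A second probe set of Col4a5 was also highest in tumour 3, but lowest in tumour 2 (220, 190 and 376). A second probe set of Col4a6 was also lowest in tumour 3, but highest in tumour 2 (424, 496 and 310). Col4a3 and Col4a4, the remaining neighbours, had intensities of at most 20 and 25.

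Type VI collagen forms beaded filaments near cell surfaces from chains encoded by Col6a1, Col6a2 and Col6a3. Col6a1 (787, 912 and 336) and its neighbour Col6a2 (869, 974 and 418) had ranges of 2.41-fold and 2.14-fold, with tumour 3 lowest. The difference of these genes varied by 0.17 (log2), the least of the 10 pairs compared. Col6a3 did not share the pattern. It had intensities of 1149, 564 and 718, highest in tumour 1 and lowest in tumour 2, and its difference from Col6a1 varied by 1.65.

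The remaining classes were lowest in tumour 3 wherever a gene passed the floor. Col7a1, of the fibrils that anchor epithelium to stroma, had intensities of 232, 158 and 49, and it passed the floor only through tumour 1. Col8a1, of short-chain networks found around vessels, had 659, 570 and 197, with tumour 3 2.38-fold below the next tumour. Col18a1, the basement membrane collagen whose end fragment is endostatin, had 880, 1649 and 345, a 4.29-fold range. Its second probe set gave 4.37-fold in the same order. Col15a1, its closest relative, had 257, 178 and 133, a 1.71-fold range.

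Below the floor were 11 collagen genes, with intensities of at most 69 in any tumour. Col25a1 and Col11a2 reached 69 and 67, Col20a1 43 and Col13a1 33. Col4a4, Col17a1 and Col19a1 reached 25 each, Col4a3 20, Col22a1 17, Col26a1 6 and Col10a1 4. Col17a1 is a hemidesmosome collagen of basal epithelium and Col10a1 marks cartilage that is turning into bone. Just inside the floor lay Col7a1 and Col5a3, whose mean levels exceeded it by 0.08 and 0.18 (log2), and Col25a1 lay nearest outside, 0.61 below.

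The modifying proteins had a narrower spread and no common low tumour. Highest and lowest tumour were at least 2-fold apart for 4 of 10 genes, against 24.8% of all genes past the floor, with a median range of 0.67 (log2). Without tumour 1 that count was 2. Tumour 2 was highest for 7 of 10 (39.2% of genes), tumour 1 was lowest for 5 (28.7%) and tumour 3 lowest for 4 (44.2%). Their median deviations were -0.18, 0.27 and -0.20 (log2) in tumours 1, 2 and 3, and without tumour 2 that of tumour 3 was 0.073. Whether collagens and modifying genes differed in spread was not tested.

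Of the 10 modifying genes Bmp1 had the widest range. Bmp1, the protease that removes the C-terminal end of fibrillar procollagens, had intensities of 757, 2577 and 299. Tumour 2 was 3.22-fold above tumour 1, and the range was 7.54-fold around a level of 9.85 ± 1.46 (SD, n = 3). A second probe set of Bmp1 kept the order at 205, 410 and 167 but had a 2.01-fold range, and the remaining one had at most 4. Pcolce, which enhances the work of Bmp1, was also highest in tumour 2, with 384, 1027 and 470. Its second probe set agreed on tumour 2 but placed tumour 3 lowest (343, 730 and 174).

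The lysyl hydroxylases prepare the residues that later carry the cross-links. Plod2, which modifies the ends of the chains, was low in tumour 1, with intensities of 703, 2576 and 2378. Tumour 1 lay 2.97-fold below the next tumour, and a second probe set also had it lowest (726, 1978 and 1397). Plod3 was low in tumour 3 (1076, 1007 and 491), 1.91-fold below the next tumour. Plod1 had the same order of tumours as Plod2 with a 1.28-fold range (996, 1334 and 1270).

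The prolyl hydroxylase subunits P4ha1 and P4ha2 stabilize the helix. P4ha1 had intensities of 184, 338 and 264, a 1.56-fold range, and P4ha2 had 126, 224 and 136, a 1.46-fold range. A second probe set of P4ha1 was also lowest in tumour 1, but highest in tumour 3 (102, 119 and 190). It passed the floor only through tumour 3. The chaperone gene Serpinh1, which is needed for folding of many collagens, had 1098, 1122 and 1402, a 1.21-fold range and the narrowest of the 10. Its reported probe set was highest in tumour 3. A second one, with intensities of 1061, 1054 and 1072, had a 1.06-fold range. Its highest value was in tumour 3 as deposited, but in tumour 1 after quantile normalization (levels of 10.17, 10.09 and 10.10). The cross-linking oxidase Lox had 513, 553 and 319, and its levels in tumours 1 and 2 were 9.18 each. Its second probe set had tumour 1 highest and tumour 2 lowest (332, 198 and 222), and the remaining one had at most 11. With the mean of all probe sets, which takes in this dim one, tumour 2 exceeded tumour 3 by 0.12 (log2) in place of 0.63. Loxl1, a relative of Lox, had 520, 357 and 306. The ranges of the reported Lox and Loxl1 probe sets were 1.55-fold and 1.62-fold.

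Genes of the collagen pathway outside the member list were taken from a list of textbook components. Of 18 further biosynthesis genes on the array 11 were past the floor, and 4 of these were at least 2-fold apart (24.8% of all genes past it). Tumour 2 was highest for 9 of the 11 (39.2% of genes) and tumour 3 lowest for 8 (44.2%). Sparc, a matrix protein that binds collagen and assists its secretion, had intensities of 4409, 5660 and 1940, a 3.21-fold range. The transglutaminase gene Tgm2, which cross-links matrix proteins, had 3243, 3615 and 1283, a 2.97-fold range. Ppib, the isomerase of the prolyl 3-hydroxylase complex, differed least, at 4296, 4173 and 4596. Of 6 receptor genes on the array 3 were past the floor. Ddr1, a receptor tyrosine kinase of epithelial cells that binds collagen, was 4.81-fold higher in tumour 3 than in tumour 2, with 461, 425 and 2261. Mrc2, which takes up collagen for breakdown, was highest in tumour 2 (110, 562 and 156). Itgb1, the β chain of collagen-binding integrins, had a 1.95-fold range (2233, 3145 and 1744).

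**Figure D2:**
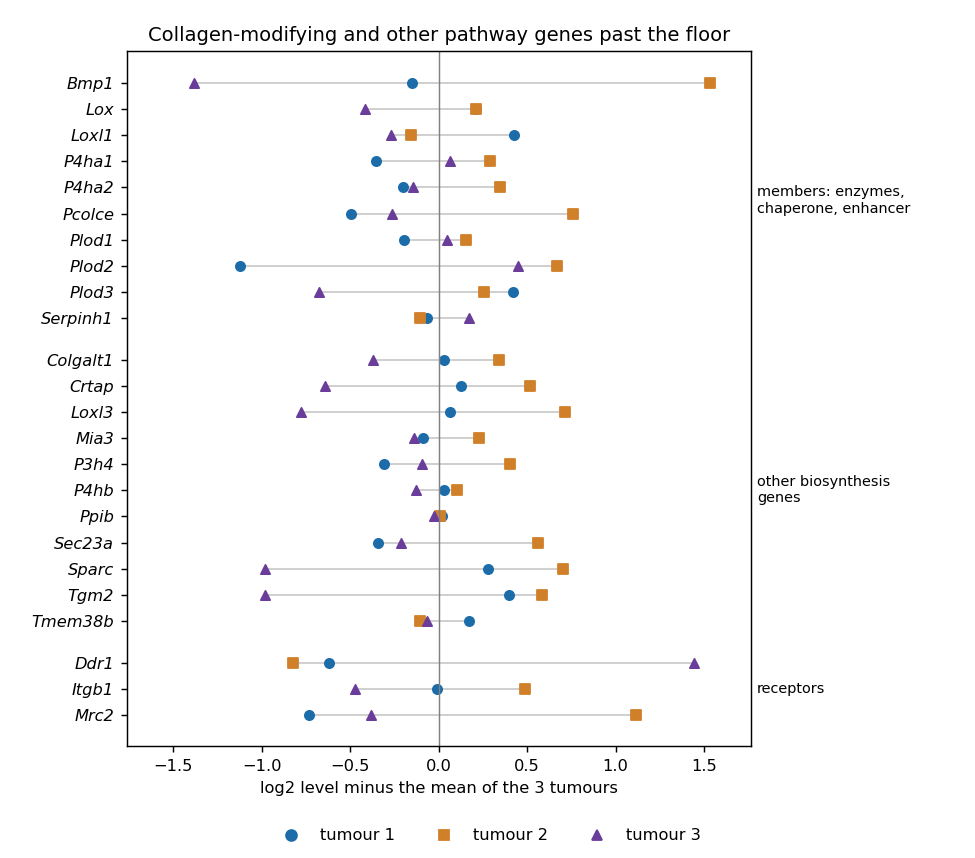
Rows are the 10 modifying genes among the members and the other biosynthesis and receptor genes past the floor. The horizontal axis is the log2 level minus the mean of the 3 tumours, and each symbol is 1 tumour, measured once. Bmp1, Plod2 and Ddr1 have wide spreads with a different outlying tumour each, and Serpinh1, P4hb and Ppib lie close to the mean.

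Several probe sets of a gene share their tumours and are no replicates, but they show how far a value depends on the part of the transcript read. Of 46 members 25 had several probe sets, and for 19 more than 1 was past the floor. These 19 genes had 20 further probe sets, of which 16 had the same lowest tumour as the reported one and 9 the same highest tumour. The 4 that placed the lowest tumour elsewhere belonged to Col4a5, Col9a3, Lox and Pcolce. For Col1a1 the second probe set kept the order with a wider range, 4.66-fold against 2.09-fold (1152, 352 and 212). For Col4a1 and Col9a1 the second probe set also had tumour 3 lowest, but placed tumour 1 above tumour 2 (1154, 1060 and 481 for Col4a1, and 1123, 886 and 270 for Col9a1).

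**Figure D3:**
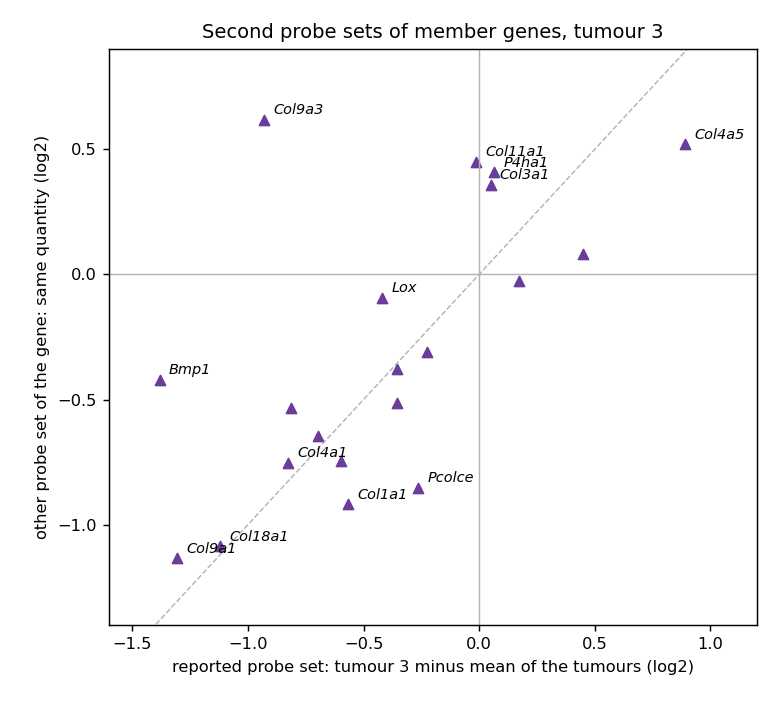
Each triangle is a further probe set past the floor of a member gene. The horizontal axis gives, for the gene's reported probe set, the level of tumour 3 minus the mean of the tumours (log2), and the vertical axis gives the same quantity for the further probe set. The dashed line marks equality, and Col9a3 lies far from it, at -0.93 against 0.62.

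Markers of the cell types that make collagens were compared over the same tumours. Over all 12393 genes on the array, 41.0% were lowest in tumour 3. Of 13 fibroblast genes on the array 6 were lowest there, 5 in tumour 1 and 2 in tumour 2. Their summed intensities were 3900, 5566 and 3682 in tumours 1, 2 and 3. Pericyte and smooth muscle genes summed to 4470, 4551 and 2805, with 8 of 9 lowest in tumour 3, and endothelial genes to 1088, 1624 and 786, with 7 of 10 lowest there. The fibroblast genes with the widest ranges were Lum (196, 729 and 289), lowest in tumour 1, and Fap (210, 350 and 97), lowest in tumour 3. Dcn had the narrowest (772, 1029 and 831). Luminal epithelial genes summed to 27231, 25803 and 25253 and macrophage genes to 12448, 11057 and 5124. Adipocyte genes summed to 405, 404 and 1997. Basal and myoepithelial genes (Krt5, Krt14, Krt17, Trp63 and Oxtr) summed to 535, 168 and 148, and none of the 5 was past the floor. Of the 535 in tumour 1, 358 came from Krt14. Skeletal muscle genes summed to 337, 137 and 618, of which Acta1 gave 125, 39 and 300. Acta1 and the adipocyte gene Adipoq passed the floor only through tumour 3. Of 5 Schwann cell genes listed 3 were on the array, at 3693, 3935 and 2735, nearly all of it from Sox10. No listed marker on the array was at 0 in any tumour. The part of these cell types in the collagen differences was not tested.

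Cartilage and bone genes were compared in the same way, since Col2a1 and type IX collagen are known from cartilage. Of 9 listed genes 7 were on the array, with sums of 322, 6360 and 505, and 5811 of the 6360 in tumour 2 came from Comp alone. Comp passed the floor only through tumour 2. Acan, the cartilage proteoglycan gene, had intensities of 26, 336 and 43, and its mean level of 7.11 was below the floor. The cartilage genes Matn1 and Hapln1 had at most 11 in any tumour. Sox9, a transcription factor that activates Col2a1 in cartilage, had 154, 128 and 393, highest in the tumour where Col2a1 was lowest. The part of cartilage cells in the values of Col2a1 and type IX collagen was not tested.

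**Figure D4:**
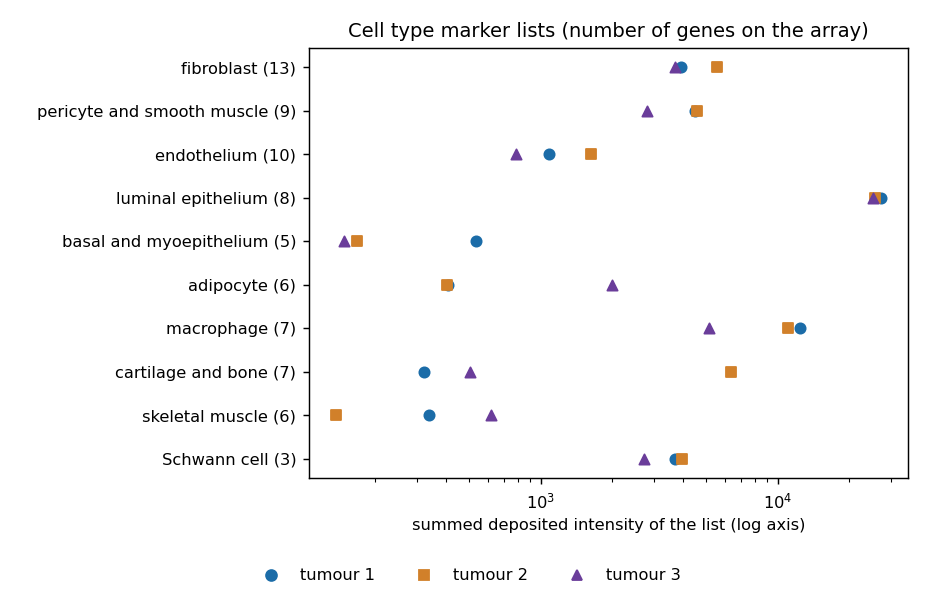
Rows are the cell type marker lists, with the number of genes on the array in brackets. The horizontal axis is the summed deposited intensity of the list on a log scale, and each symbol is 1 tumour, measured once. Tumour 3 is lowest for every list except adipocyte, skeletal muscle, and cartilage and bone. For fibroblast genes (3682 against 3900 in tumour 1) and luminal epithelial genes (25253 against 25803 in tumour 2) it is lowest by little. It is highest for adipocyte and skeletal muscle genes, and tumour 2 stands apart for the cartilage and bone list.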

How the data were processed

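Biotin-labelled cRNA from total RNA of 3 mammary tumours was hybridised to 1 array each, per the labels' protocols. The deposited table holds a linear intensity, a whole number of 0 or more, for every probe set in every tumour. For the authors' summarisation, background correction and scaling of these intensities, no source used here gives a method.

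Of 22690 probe sets, 64 controls were left out. Genes were named from the platform's annotation (20380 probe sets with 1 gene, 691 with several and 1555 not listed), and the gene IDs of all 76 member probe sets matched RefSeq (GRCm38.p6). The 2% trimmed means of the arrays were 5.38% apart, above a limit of 5%, so the arrays were quantile normalized (tied values share a mean), 50 was added and log2 taken. The floor of 7.40 corresponds to an intensity of 119. The code was tested on simulated arrays with bright genes raised by known folds in tumour 1. That test did not cover the counts of lowest tumours or genes near the floor. No test was run, since all 3 samples form 1 group.

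Every member may be named. Of each list of other pathway genes the 2 widest and the narrowest were named, and others where a member's result turned on them. The members, lists and alternatives were chosen with earlier results of these data known, some of which already showed matrix genes low in tumour 3. Planned protein comparisons were not run because no protein sequences were used here. Python 3.11.15, numpy 2.4.6, pandas 2.3.3 and matplotlib 3.10.9 were used.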

Additional observations from a re-analysis of the deposited data

How the results depend on the processing

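All 21 members at least 2-fold apart kept their direction under each scaling and offset tried, with the mean of all probe sets, with suffixed probe sets left out and with any single tumour left out, wherever they had a value. They stayed at least 2-fold apart in 135 of 143 such values, and the 8 others belonged to Col1a1, Col1a2, Col5a2, Col6a3, Col8a1 and Col9a3. A value with a tumour left out exists only where that tumour was neither the highest nor the lowest of the gene. It compares the same pair of tumours as before, so it is a weak check of direction. Settings that left a gene's probe set unchanged could also repeat its value, so the 143 values are not independent. None of the 14 members under 2-fold changed sign under these settings. Read from their second probe sets alone, tumour 2 minus tumour 3 turned negative for Col9a3 (-0.47) and Lox (-0.22). Every count of genes that moved by over 1.5 times under another setting is given here.

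The count of collagens highest in tumour 3 (2) was 4 with array medians subtracted, with the mean of all probe sets and with no floor, and 1 with a floor at the 75th percentile. With that floor tumour 1 was highest for 5 collagens, tumour 2 was lowest for 1, and the median range of modifying genes was 1.10. With no floor tumour 1 was highest for 16 and tumour 2 lowest for 9. With suffixed probe sets left out, tumour 2 was highest for 8 and lowest for 1. The cause was not tested, beyond the number of genes that each floor leaves. A floor on the mean of the 2 lower tumours, chosen after seeing the data, removed Col7a1 and gave 16 collagens at least 2-fold apart.

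Leaving out each tumour in turn, the collagens at least 2-fold apart numbered 4 to 14 and their median range was 0.52 to 1.04, lowest without tumour 3. The modifying genes numbered 2 to 3. Collagens were highest in tumour 1 in 10 to 18 genes, in tumour 2 in 15 to 20 and in tumour 3 in 4 to 6, and lowest in tumour 1 in 6 to 15 and in tumour 2 in 4 to 10. The median deviation of collagens in tumour 1 was -0.048 to 0.49, and that of modifying genes in tumour 3 was -0.18 to 0.073. Fewer tumours leave fewer positions to take, and no other cause was tested. A count for a tumour has no value without that tumour.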
